A study of Mus musculus with 26 samples.

Results

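The 8 genes of the peripheral nerve and its response to injury were followed through the regeneration of mouse tibialis anterior (TA) muscle and in a muscle cell line. They were Mbp and Pmp22 (myelin), Sox10 and S100b (Schwann cell lineage), and Ngfr, Gap43, Gdnf and Gal (injured nerve). They were chosen by symbol, and 8 of 8 were found among the 53465 genes listed for muscle and the 55487 listed for the cell line. TA muscle of C57BL/6J mice was sequenced on day 0 and on days 1, 3, 5 and 10 after cardiotoxin (CTX), a snake venom toxin that lyses muscle fibres, with 2 libraries a day and 10 in all. The methods describe young male mice and name saline as the control, and one supplementary sheet heads the day 0 averages as saline on day 10. Whether day 0 is untouched or saline-injected muscle is therefore not settled. The labels do not say that libraries came from separate animals, so every p measures the spread between these libraries. C2C12 mouse myoblasts carried a control construct (CTRL) or a CRISPR construct against Mettl3 (Cas9M3), described in the methods as a dCas9-KRAB knockdown and in the series text as a knockout. They were sampled in growth medium (GM, D0 in the labels) and on day 3 of differentiation (DM3, D3 in the labels), with 2 libraries in each of 4 groups. Mettl3 was at 4.68 to 5.65 FPKM in the 4 CTRL libraries and at 0.0805 to 0.331 FPKM in the 4 Cas9M3 libraries.

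Schwann cells ensheath the axons that reach a muscle. A myelinating Schwann cell keeps Sox10, the transcription factor that holds lineage identity, and makes large amounts of myelin proteins such as myelin basic protein (Mbp) and peripheral myelin protein 22 (Pmp22). When an axon is lost, the cell lowers its myelin genes and raises a repair set that includes Ngfr, the p75 neurotrophin receptor, and Gdnf, a survival factor for motor neurons. Gap43, a growth cone protein, and Gal, the neuropeptide galanin, are known for their rise in injured neurons. Terminal Schwann cells cap the neuromuscular junction and carry the calcium-binding protein S100b. CTX acts on the fibres themselves, and axons, satellite cells and vessels of the injected muscle are known to be affected less.

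The unit is FPKM, the fragments on a gene scaled by its length and by a factor of the library, as deposited. That factor is not depth alone. In replicate 1 of day 0, with 16780000 reads on genes, 1 read on 1 kb was worth 0.0803 FPKM. In replicate 1 of day 3, with 14330000 reads, it was worth 0.0507 FPKM. Folds between days therefore carry this scaling. Changes were tested with limma on log2(FPKM + 0.1) over the 16753 genes that reached 0.5 FPKM in 2 or more libraries, and adjusted p is the Benjamini-Hochberg value over all of them. Calls needed an adjusted p no higher than 0.05, and folds on this scale understate the change of low genes. Libraries held 14170000 to 18820000 reads on genes, and 1 read on a gene of 1 kb was worth 0.0494 to 0.0817 FPKM. Reads per gene below are read from these steps, of which 97.2% to 98.0% were whole within 0.05 reads. All 8 genes passed the filter, Sox10 only through both day 0 libraries, Gap43 only through replicate 2 of days 3 and 5, and Gal only through the libraries of days 1 and 3. For these 3 the filter itself favours a difference, so values without it are given beside their tests. Mbp and Pmp22 were the deepest, with 62 to 267 and 208 to 707 reads a library. Gap43 had 0 to 24 reads, S100b 5 to 28 and Sox10 9 to 35, so that counting error alone is large for these 3. Xist, the RNA of the inactive X chromosome, was at 5.77 to 10.0 FPKM in 5 libraries, both of day 0, both of day 10 and replicate 2 of day 3. It was at most 0.152 FPKM in the other 5, in which 4 Y-linked genes were at 0.626 FPKM or more. In the 5 libraries with Xist these Y-linked genes were at most 0.108 FPKM. By these genes the libraries with Xist look female, whereas the methods describe male mice, and no source resolves this. Days 1 and 5 therefore differ from day 0 in apparent sex as well as in time, and the 2 cannot be told apart for them. In bulk muscle, fewer cells of a type and less RNA per cell cannot be told apart either.

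Over the 5 days, 2 of the 8 genes differed, against 43% of all genes tested. These were Gal (moderated F test of limma, adjusted p = 0.00283) and Sox10 (adjusted p = 0.0438). The adjusted p was 0.0976 for S100b, 0.115 for Gap43, 0.148 for Ngfr and 0.161 for Mbp. It was 0.426 for Gdnf and 0.531 for Pmp22. Galanin had its peak on day 3. Without the filter 1 of the 8 was called over the 5 days, and against day 0 Sox10 was called lower on days 3 and 5 and on no other day. The myelin pair showed no called change on any day. With either day 0 library left out Sox10 no longer passed the filter, and 1 of the 8 was then called.

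**Figure D1:**
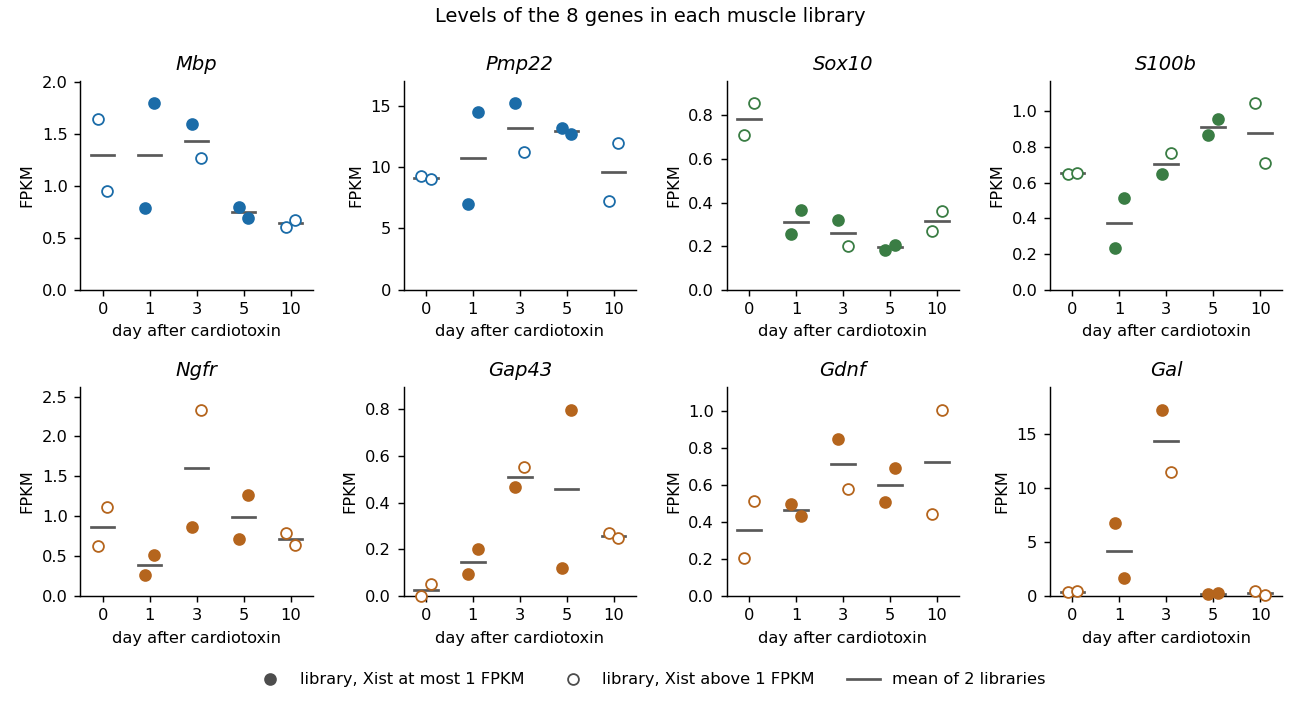
FPKM (linear axis from 0) of each of the 8 genes in the 10 muscle libraries by day after cardiotoxin, with 1 point per library, a bar for the mean of 2 libraries, and open points for the 5 libraries with Xist above 1 FPKM. Gal stands at 17.3 and 11.5 FPKM on day 3 and at no more than 0.459 FPKM on days 0, 5 and 10, while Sox10 is highest in both day 0 libraries.

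Gal encodes galanin, a neuropeptide of sensory and motor neurons that is also made in other tissues. It lies on the minus strand of chromosome 19, 3409915 to 3414544 (GRCm38, GENCODE M21), and its exons overlap no other gene. It was at 0.338 and 0.421 FPKM on day 0, 6.77 and 1.60 FPKM on day 1, 17.3 and 11.5 FPKM on day 3, 0.172 and 0.214 FPKM on day 5, and 0.459 and 0.106 FPKM on day 10. Both day 3 libraries stood above all other libraries, both day 1 libraries came next, and days 0, 5 and 10 lay together. On day 3 the mean was 14.4 ± 4.13 FPKM (SD, n = 2), 37.9-fold that of day 0, with 269 and 183 reads against 3 and 4. The ratio of the reads, each scaled by its FPKM worth, was 41.7. Its exact 95% counting interval of 20.1 to 104 covers counting error only, and not the choice of scaling. The log2 fold change was 4.89 (SE 0.68, limma adjusted p = 0.00112, and 0.00305 without the filter). It was 4.60 (adjusted p = 0.00963) without replicate 1 of day 3, when all libraries compared had Xist above 1 FPKM.

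The rise of Gal was short. Day 1 was 11.03-fold the level of day 0 by the means, with 76 and 17 reads, and its log2 fold change of 2.84 (SE 0.68, limma adjusted p = 0.0511) just missed the threshold, with an adjusted p of 0.0985 without the filter. It passed in 5 of the alternatives, among them the fit without replicate 2 of day 1, where it was 3.85 (adjusted p = 0.018), while without replicate 1 it was 1.83 (adjusted p = 0.191). From day 3 to day 5 Gal fell by 5.60 on the log2 scale (SE 0.68, limma adjusted p = 0.00618, and 0.00923 without the filter), to 2 and 3 reads. This fall missed the threshold when replicate 2 of either day was removed (limma adjusted p = 0.0518 for day 3, 0.0532 for day 5). Day 10 was also below day 3 (log2 fold change -5.39, limma adjusted p = 0.00124). Days 5 and 10 held 5 reads each over both libraries against 7 on day 0. Their log2 differences from day 0 were -0.71 (95% interval -2.28 to 0.86) and -0.49 (-2.06 to 1.08), which were not detectable changes at this depth.

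Galanin acts through 3 receptors, Galr1, Galr2 and Galr3. Of these, only Galr2 passed the filter. It was at 0.196 and 0.823 FPKM in the day 0 libraries and at 0.536 and 0.906 FPKM in those of day 3, with overlap and a log2 fold change of 0.61 (limma adjusted p = 0.449). Galr1 was at most 0.0265 FPKM and Galr3 at most 0.0814 FPKM in any library. Galp, the galanin-like peptide, was listed at 0 in all 10 libraries. Galr2 was thus the receptor with a measurable level beside the peak of the ligand.

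Sox10 lies on the minus strand of chromosome 15, 79154908 to 79165240. It was at 0.710 and 0.856 FPKM on day 0, 0.257 and 0.365 FPKM on day 1, 0.317 and 0.200 FPKM on day 3, 0.181 and 0.206 FPKM on day 5, and 0.271 and 0.361 FPKM on day 10. Each of the 8 libraries after injury was below both day 0 libraries, and the 4 later days overlapped, apart from day 5, whose libraries were below those of days 1 and 10. Because the gene entered the test through day 0, a lower level on later days is partly set by the filter. Sox10 was called on day 3 (log2 fold change -1.31, SE 0.35, limma adjusted p = 0.0172) and on day 5 (-1.59, SE 0.35, adjusted p = 0.0205). Day 1, at -1.11, had an adjusted p of 0.0987, and day 10, at -1.09, one of 0.418. Without any filter the adjusted p was 0.0235 on day 3 and 0.0335 on day 5.

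In reads, Sox10 had 62 on day 0 and 31 on day 3 over both libraries. With each read scaled by its FPKM worth, the ratio of day 3 to day 0 was 0.323 (exact 95% counting interval 0.203 to 0.505). That of day 5 was 0.243 (0.141 to 0.404). A Sox10 read was worth 0.0263 and 0.0245 FPKM on day 0 and 0.0166 and 0.0162 FPKM on day 3. The day 0 libraries held 16780000 and 16150000 reads on genes, and those of day 3 held 14330000 and 14290000. By depth alone the fall on day 3 is smaller than this ratio, and it was not tested on that scale. Libraries matched for Xist gave -1.55 on day 3 (limma adjusted p = 0.0442, without replicate 1 of day 3). Removing replicate 2 of day 3 ended the call there (-1.08, adjusted p = 0.119), and removing either library of day 5 ended the later one (adjusted p = 0.0819 and 0.111). With a term for libraries with Xist above 1 FPKM the day 5 value was -2.06 (adjusted p = 0.183).

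S100b, the glial calcium-binding protein, did not follow Sox10. It lies on the plus strand of chromosome 10, 76253853 to 76261159. Its values were 0.649 and 0.656 FPKM on day 0, 0.235 and 0.513 FPKM on day 1, 0.649 and 0.766 FPKM on day 3, 0.868 and 0.957 FPKM on day 5, and 1.05 and 0.711 FPKM on day 10. Both day 1 libraries were the lowest of the 10, and days 3 to 10 were at or above day 0. Its log2 fold change was -0.73 on day 1 (limma adjusted p = 0.211) and 0.83 from day 1 to day 3 (adjusted p = 0.097), and no comparison called it. By the means the order was day 5, day 10, day 3, day 0 and day 1. Over the 10 libraries, which share these days, the correlation of S100b with Sox10 on the log2 scale was -0.15.

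Neither myelin gene was called on any day, and the data do not exclude a lower Mbp late in the course. Mbp was at 1.64 and 0.945 FPKM on day 0, 0.789 and 1.79 FPKM on day 1, 1.60 and 1.26 FPKM on day 3, 0.796 and 0.694 FPKM on day 5, and 0.603 and 0.673 FPKM on day 10. The first 3 days overlapped, with the libraries of day 1 farther apart than those of any other day. The 4 libraries of days 5 and 10 were below both libraries of days 0 and 3. The log2 difference from day 0 was -0.68 on day 5 (limma adjusted p = 0.234) and -0.87 on day 10 (95% interval -1.78 to 0.03, adjusted p = 0.507). From day 3 to day 10 it was -1.05 (95% interval -1.95 to -0.14, adjusted p = 0.0684), and none of these passed after adjustment. The day 10 mean was 0.493 of the day 0 mean.

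Pmp22, on chromosome 11 (plus strand, 63128982 to 63159547), had the highest mean over the 10 libraries of the 8 genes per length. Its values were 9.28 and 9.04 FPKM on day 0, 7.03 and 14.5 FPKM on day 1, 15.2 and 11.2 FPKM on day 3, 13.2 and 12.7 FPKM on day 5, and 7.22 and 11.98 FPKM on day 10. Days 3 and 5 were above day 0 in both libraries, and days 1 and 10 spanned it. The log2 fold change was 0.51 on day 3 (95% interval -0.32 to 1.34, limma adjusted p = 0.273) and 0.49 on day 5 (-0.34 to 1.33, adjusted p = 0.339). By the means, day 10 stood between day 1 and day 0, at 9.60 ± 3.37 FPKM (SD, n = 2) against 9.16 ± 0.17 on day 0.

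**Figure D2:**
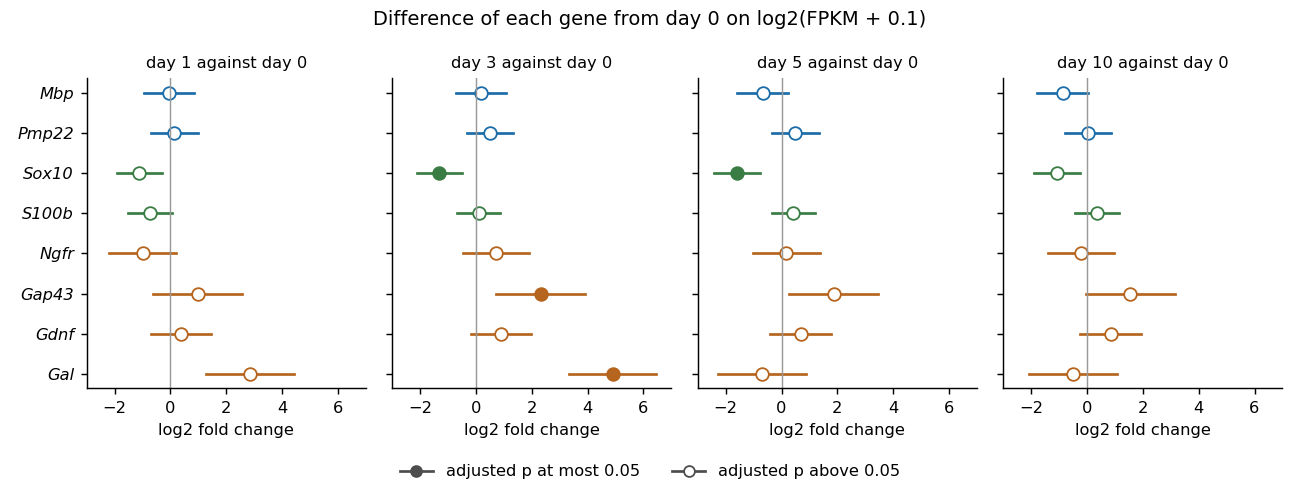
Log2 fold change of each of the 8 genes against day 0 (x axis, on log2(FPKM + 0.1)) for days 1, 3, 5 and 10, with bars for the 95% interval of the limma fit and filled points where the call was made. Gal, Gap43 and Sox10 are filled on day 3 and Sox10 on day 5, and the intervals of Mbp and Pmp22 include 0 on each day.

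Of the nerve injury genes other than Gal, Gap43 was called higher on day 3, as a gene that entered the test only through libraries of days 3 and 5. Gap43 lies on the minus strand of chromosome 16, 42248442 to 42340651. It was listed at 0 and at 0.0492 FPKM on day 0, at 0.0917 and 0.200 FPKM on day 1, 0.466 and 0.552 FPKM on day 3, 0.121 and 0.799 FPKM on day 5, and 0.268 and 0.248 FPKM on day 10. All 8 libraries after injury were above both day 0 libraries, and the libraries of day 5 were the farthest apart. The reads were 0 and 1 on day 0 and 14 and 17 on day 3. With each read scaled by its FPKM worth, the ratio was 20.0, with an exact 95% counting interval of 3.34 to 816. The interval on day 10 was 1.44 to 439. That on day 1, 0.684 to 259, included 1.

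The fitted log2 fold change of Gap43 was 2.31 on day 3 (SE 0.68, limma adjusted p = 0.025, and 0.0359 without the filter), and it depends on the pseudocount. It was 0.56 with a pseudocount of 1 (adjusted p = 0.0566) and 4.41 with 0.01 (adjusted p = 0.0147). The day 5 value of 1.87 had an adjusted p of 0.0807, and the day 10 value of 1.55 one of 0.503. The day 3 call depended on replicate 1 of day 0 (adjusted p = 0.114 when removed) and on replicate 1 of day 3 (0.0914 when removed), and it was lost with the Xist term (0.0762) and with quantile normalization (1.79, adjusted p = 0.110). Without replicate 2 of day 3 the gene failed the filter. Its entry through days 3 and 5 also partly sets the direction.

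Ngfr, the p75 receptor on chromosome 11 (minus strand, 95568818 to 95587735), was low on day 1 and highest on day 3. Its values were 0.629 and 1.11 FPKM on day 0, 0.263 and 0.508 FPKM on day 1, 0.867 and 2.34 FPKM on day 3, 0.712 and 1.27 FPKM on day 5, and 0.782 and 0.635 FPKM on day 10. Both day 1 libraries were the lowest of the 10, and replicate 2 of day 3 was the highest. From day 1 to day 3 Ngfr rose by 1.71 on the log2 scale (SE 0.51, limma adjusted p = 0.0398). Without replicate 2 of day 3 the rise was 1.04 (adjusted p = 0.229). The adjusted p was also above 0.05 without either library of day 1 (0.161 and 0.0533) and in the 4 fits without a library of day 5 or 10 (0.0516 to 0.0531). Against day 0 the day 3 value was 0.71 (adjusted p = 0.286), and the adjusted p of the lower day 1 level was 0.259.

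Gdnf, on chromosome 15 (plus strand, 7810846 to 7837575), was at 0.206 and 0.512 FPKM on day 0, 0.498 and 0.434 FPKM on day 1, 0.852 and 0.578 FPKM on day 3, 0.507 and 0.694 FPKM on day 5, and 0.442 and 1.01 FPKM on day 10. Day 3 was above day 0 in both libraries, and the other days overlapped day 0. The log2 fold change was 0.89 on day 3 (95% interval -0.19 to 1.97, limma adjusted p = 0.149) and 0.84 on day 10 (-0.24 to 1.92, adjusted p = 0.569). The means of days 10, 3 and 5, at 0.726, 0.715 and 0.6004 FPKM, differed by less than the spread between libraries.

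Counted over the 8 genes, 2 were called higher (Gap43 and Gal) and 1 lower (Sox10) on day 3 against day 0. Among all genes tested 24.5% were called higher, 24.3% lower and 48.8% in either direction, so the number called was no larger than that background. On day 1 none of the 8 was called against 6% of all genes, at 1005 genes, and Gal and Sox10 had an unadjusted p under 0.05 (0.0033 and 0.0143). On day 5, 1 was called, Sox10, which was lower, as were 12.5% of all genes of the 25.5% called. On day 10 none was called in the limma fit, when 0.00597% of genes were, or 1 gene. Only Sox10 of the 8 had an unadjusted p under 0.05 on that day (0.0156), as did 1697 genes in all.

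Between injured days 1 of the 8 genes was called in each of the 3 comparisons made. From day 1 to day 3, 1 of the 8, Ngfr, was called and was higher, against 14.5% of genes higher and 31.1% called in all. From day 3 to day 5 Gal was called lower, against 5.46% lower and 12.7% called in all. From day 3 to day 10 Gal was again called lower, against 18.8% lower and 37.9% called in all. Taken in the order of the injured days, the median log2 fold change of the 8 genes from day 0 was 0.04, 0.61, 0.30 and -0.10. The median of all genes tested stayed at 0, 0.0075, 0 and 0.0015.

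The 8 genes are drawn from larger sets, and these show how far they stand for them. Among 17 genes of myelin and its making, 10 passed the filter. On day 3 against day 0, 3 of the 10 were higher and 0 lower, where 24.5% of all genes were higher and 24.3% lower. These were Drp2, a dystrophin-related protein of the myelin sheath (log2 fold change 2.15, limma adjusted p = 0.001), Cnp, an enzyme of myelinating cells (0.52, adjusted p = 0.00807), and Egr2, the transcription factor of myelination (1.36, adjusted p = 0.0471). The last was named after its value was seen. The medians of the 10 tested myelin genes were -0.17, -0.05, -0.41 and -0.35 on days 1, 3, 5 and 10.

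Of 14 Schwann cell lineage genes 7 were tested. On day 3, 2 were higher and 2 lower, close to the same shares of all genes, and the median was 0.10. Erbb3, the neuregulin receptor of Schwann cells, was at 1.56 and 2.18 FPKM on day 0 and 9.20 and 15.8 FPKM on day 3 (log2 fold change 2.65, limma adjusted p = 0.000438). Scn7a, a sodium channel of non-myelinating Schwann cells, also rose (2.03, adjusted p = 0.00246). Cadm4, an adhesion protein at the axon contact, fell by 0.75 with Sox10 (adjusted p = 0.0324). Gfap, a filament protein of repair and non-myelinating Schwann cells, was at most 0.082 FPKM in any library.

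Of 17 repair and axon growth genes 9 were tested, and on day 3 5 of these were higher and none lower, against the 24.5% and 24.3% of all genes. Of the 9, 4 were under 0.5 FPKM in both day 0 libraries and so were tested only through later days, which raises both the count and the median. Besides Gal and Gap43 these were Tnc, a matrix glycoprotein (log2 fold change 4.58, limma adjusted p = 0.00325), Runx2 (3.10, adjusted p = 0.000413) and Clcf1, a cytokine (2.01, adjusted p = 0.0126), the last 2 named after their values were seen. Their median of 2.01 on day 3 was the highest of the 3 sets, and it was 0.90, 1.34 and 0.80 for days 1, 5 and 10. The transcription factors Jun and Atf3, which switch on the repair state, were at 15.8 to 57.1 FPKM and 6.82 to 35.7 FPKM. Neither was called on any day against day 0, and their log2 fold changes for day 3 were -0.55 (adjusted p = 0.315) for Jun and -0.16 (adjusted p = 0.843) for Atf3. Shh, a signal of repair Schwann cells, was listed at 0 in all 10 libraries. The difference between the sets was not tested, and 1 of 10 myelin and 1 of 7 lineage genes were under that level on day 0. These lists were composed with earlier results of the data known, so their counts are descriptions.

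**Figure D3:**
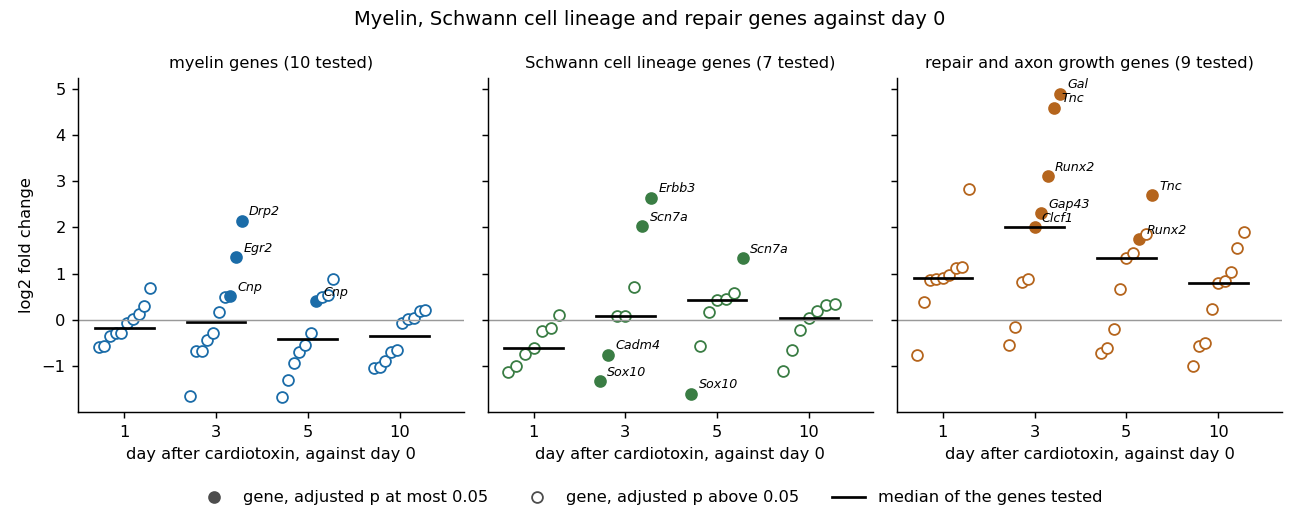
Log2 fold change against day 0 (y axis) of each tested gene of the myelin (10), Schwann cell lineage (7) and repair and axon growth (9) sets on days 1, 3, 5 and 10, with filled, named points for called genes and a bar for the median. 5 of the repair genes are filled on day 3, where their median is 2.01, against -0.05 for the myelin set and 0.10 for the lineage set.

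Of 10 GDNF family ligands and receptors 8 were tested, of which 2 were higher on day 3 (24.5% of all genes). GDNF binds Gfra1 and signals through Ret, or through Ncam1 where Ret is absent. Gfra1 was at 0.381 and 0.479 FPKM on day 0, 1.01 and 1.18 FPKM on day 3 and 1.67 and 1.25 FPKM on day 5, with both later days above day 0. Its log2 fold change was 1.18 on day 3 (limma adjusted p = 0.0943) and 1.55 on day 5 (adjusted p = 0.0617). Ret was at 0.403 to 1.38 FPKM with overlap between the days (0.42 on day 3, adjusted p = 0.506). Ncam1, which regenerating fibres also carry, rose from 0.964 and 1.63 FPKM to 21.8 and 40.6 FPKM on day 3 (4.46, adjusted p = 0.000324). Gfra2, the receptor of neurturin, rose on day 3 (1.75, adjusted p = 0.0301). Neurturin itself, Nrtn, was at 4.08 and 2.71 FPKM in the day 0 libraries, and 0.8998 and 0.0496 FPKM remained by day 5 (-3.15, adjusted p = 0.0331). Artn and Gfra3 did not pass the filter.

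Ngfr binds each neurotrophin. Of 9 neurotrophins and receptors 5 were tested, of which 1 was lower on day 3 (24.3% of all genes). Ntf5, neurotrophin 4, was at 4.54 and 3.92 FPKM on day 0, 1.16 and 1.84 FPKM on day 1 and 0.726 and 0.894 FPKM on day 3, and was again at 3.75 and 4.68 FPKM on day 5. It fell on day 1 (log2 fold change -1.47, limma adjusted p = 0.0325) and on day 3 (-2.25, adjusted p = 0.000746), when Ngfr was at its lowest and highest. Sort1, the partner of Ngfr for the proneurotrophins, was at 6.59 to 15.0 FPKM and was not called. Bdnf did not pass the filter, and the receptors Ntrk2 and Ntrk3 reached at most 0.3997 and 0.0186 FPKM.

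Markers of other cell types were also followed on day 3, when 24.5% of all genes tested were called higher and 24.3% lower. All 6 macrophage markers rose on day 3, with a summed level of 19.0 and 35.8 FPKM on day 0 and 546 and 517 FPKM on day 3. All 8 markers of muscle progenitors and new fibres rose too, from 40.2 and 55.7 FPKM to 1005 and 1508 FPKM. All 6 adult fibre markers fell, from 28251 and 21780 FPKM to 7123 and 4024 FPKM. Of the 6 fibroadipogenic markers 2 rose, with sums of 77.5 and 144 FPKM on day 0 and 459 and 497 FPKM on day 3. Col1a1, at 13.9 to 368 FPKM over all muscle libraries, was called (log2 fold change 3.64, limma adjusted p = 0.00384). Ly6a, Dpt and Dcn were not called. Of the 4 tested neutrophil markers 1 was higher, near the share of all genes. Of the other lists on day 3, 1 of 4 tenocyte markers was higher, 1 of 4 tested adipocyte markers lower, 2 of 5 endothelial markers lower, 0 of 3 tested perineurial markers called, and 2 of 5 pericyte markers higher and 1 lower. The part of these changes in the values of Gal, Gap43, Sox10, Erbb3, Tnc and Ncam1 was not tested.

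Markers of axons differed widely in level. Of 9 neuron and axon markers 3 passed the filter, and 1, Tubb3, rose on day 3, from 0.043 and 0.16 FPKM to 10.9 and 13.8 FPKM (log2 fold change 6.001, limma adjusted p = 0.000263). The neurofilament genes Nefl, Nefm and Nefh, which mark axons more strictly, were at most 0.111 FPKM. Chat, the enzyme of cholinergic neurons, was at most 0.0391 FPKM and Snap25 at most 0.0111 FPKM. Nefl, Chat and Snap25 were undetected in both day 0 libraries, so a fall after injury could not be seen in them. Other members were measurable. Prph, the filament of peripheral neurons, was at 0.043 to 1.31 FPKM and was not called on day 3 (log2 fold change 0.94, limma adjusted p = 0.472). Stmn2, a microtubule protein of neurons, was at 0.159 to 0.530 FPKM. Uchl1 and Tubb3 had the highest means of the list.

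**Figure D4:**
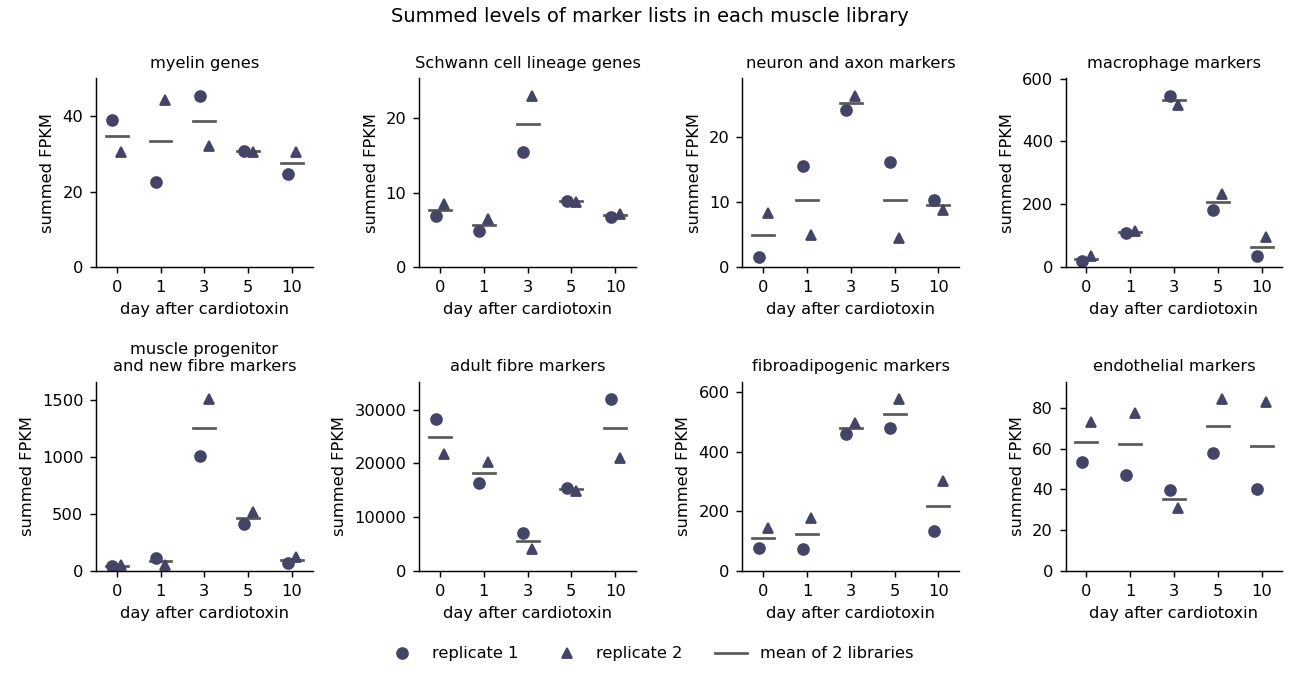
Summed FPKM (linear axis from 0) of 8 marker lists in each muscle library by day after cardiotoxin, with circles and triangles for replicates 1 and 2 and a bar for their mean. The macrophage, progenitor, lineage and neuron sums are highest in both libraries of day 3, and the adult fibre sum is lowest there. Single genes weigh heavily in 2 of these sums. Erbb3 alone makes up 9.20 and 15.8 of the 15.5 and 23.0 FPKM of the lineage list on day 3. Tubb3 makes up 10.9 and 13.8 of the 24.1 and 26.4 FPKM of the neuron list. By their calls against day 0, 2 of 7 tested lineage genes rose and 2 fell, and 1 of 3 tested neuron genes rose. The myelin sums of day 1, at 22.6 and 44.3 FPKM, span those of all other days except replicate 1 of day 3.

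The 2 libraries of a day were often farther apart in the nerve sets than in the median gene. On day 0, the baseline, 0 of 9 tested repair genes and 0 of 7 lineage genes were higher in replicate 1, with median gaps of -0.76 and -0.39 on the log2 scale against a median absolute gap of 0.26 over all genes. The repair set was also apart on day 10, at a median absolute gap of 0.73 against 0.29. On day 1, 8 of the 10 tested myelin genes were lower in replicate 1, with a median gap of -0.86 on the log2 scale, while 7 of 9 repair genes were higher there (median gap 1.04). Over all genes the median absolute gap on that day was 0.33. On day 3, 7 of 10 myelin genes were higher in replicate 1 (median gap 0.47, against a median absolute gap of 0.20 over all genes), while the lineage set, at 0.21, was like all genes. Fibroadipogenic and tenocyte sums also differed on day 1, at 72.4 and 178 FPKM and at 24.3 and 40.1 FPKM. Myelin and stromal markers thus went the same way between the 2 libraries of day 1. They did not on day 0, with 8 of 10 myelin genes higher in replicate 1 and fibroadipogenic sums of 77.5 and 144 FPKM. Nor did they on day 3, when the fibroadipogenic sums were 459 and 497 FPKM. The part of the day 1 gaps in the spread of Mbp, Pmp22 and Gal on that day was not tested.

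The 8 genes did not vary as 1 group. Over the 10 libraries, which share 5 days and are described without a test, Pearson's r on the log2 scale was 0.43 between Mbp and Pmp22. It was 0.67 between Gap43 and Gdnf, 0.66 between S100b and Ngfr, 0.54 between Ngfr and Gap43, and -0.68 between Sox10 and Gap43. Gal had r between -0.48 (S100b) and 0.49 (Mbp) with the other 7. Among the 12285 tested genes with a mean of at least 1 FPKM, the pattern most like that of Gal was shown by Sptssa, Cdk9 and Asxl1 (r = 0.965, 0.962 and 0.960). For S100b these were Reep1, Parp8 and Usp40 (0.961, 0.958 and 0.955), and for Sox10 Gpr155, Ncaph2 and Ppp6r3 (0.909, 0.904 and 0.901). For Mbp they were Zfp809, Amotl2 and Kat6a (0.913, 0.905 and 0.895), and for Pmp22 Ctdspl, Trim56 and Sptbn1 (0.919, 0.919 and 0.908). For Ngfr they were Mgat1, 1700029I15Rik and Ccdc157 (0.932, 0.932 and 0.929), for Gap43 Rint1, Gm42846 and Stat6 (0.935, 0.926 and 0.915), and for Gdnf Cenpc1, Foxs1 and Nectin2 (0.931, 0.917 and 0.909). None of these 24 genes is in the myelin, lineage or repair sets, and with 10 libraries and 12285 genes such values are expected to be high for some gene.

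In C2C12 myoblasts, a line with no Schwann cells or neurons, the levels of the 8 genes ranged from high to none detected. Values of this table were scaled separately and were not compared with those of muscle. Pmp22 was at 68.2 to 165 FPKM and Gdnf at 2.44 to 5.93 FPKM, and only these 2 of the 8 passed the filter, among 13824 genes. Sox10 was listed at 0 in all 8 libraries. Gal had 1 read in 1 library, at 0.0463 FPKM, Ngfr at most 1 read, and S100b at most 7. Gap43 was at 0.0239 to 0.340 FPKM with 1 to 8 reads, and Mbp at 0.0258 to 0.305 FPKM with 6 to 82 reads, so that both were low but present in each library. Some repair genes that rose in muscle were also measured in these cells. These were Tnc (3.21 to 32.4 FPKM), Runx2 (4.70 to 7.65 FPKM) and Clcf1 (4.31 to 8.59 FPKM). Ncam1 was at 3.86 to 17.6 FPKM. Of the myelin genes that rose, Cnp was at 2.87 to 7.57 FPKM, Drp2 at 0.605 to 3.47 and Egr2 at 0.796 to 2.16. The axon marker Tubb3 was at 0.808 to 10.8 FPKM. Of the lineage genes that rose, Erbb3 was at most 0.721 FPKM and Scn7a at most 0.562. The cell source of these genes in muscle was not tested.

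Pmp22 was lower after differentiation. In CTRL cells it was at 165 and 136 FPKM in GM and 68.2 and 72.3 FPKM in DM3, with no overlap, and its log2 fold change was -1.09 (95% interval -1.59 to -0.60, limma adjusted p = 0.0736). This did not pass the threshold, and with the replicate numbers as a block the adjusted p was 0.0501. Without replicate 1 of CTRL in GM it was -0.95 (adjusted p = 0.0299). In Cas9M3 cells Pmp22 was at 142 and 114 FPKM in GM and 85.3 and 93.4 FPKM in DM3. The cells of DM3 differed in state between the lines: the summed level of progenitor and new fibre markers was 383 and 349 FPKM in CTRL and 24.3 and 21.2 FPKM in Cas9M3 (median log2 difference -4.58 over 6 tested markers, 1 of them called lower). The part of this in the values of Pmp22 and Gdnf was not tested. The log2 difference of knockdown from control was -0.23 in GM (-0.73 to 0.26, adjusted p = 0.769) and 0.35 in DM3 (-0.15 to 0.84, adjusted p = 0.482). The 2 effects differed by 0.58 (SE 0.29, adjusted p = 0.626).

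Gdnf was at 5.93 and 4.59 FPKM in CTRL and 2.44 and 3.16 FPKM in Cas9M3 cells in GM, and at 5.86 and 4.74 FPKM against 4.50 and 3.26 FPKM in DM3. All 4 Cas9M3 libraries were below every CTRL library. The log2 difference was -0.89 in GM (95% interval -1.53 to -0.24, limma adjusted p = 0.445) and -0.45 in DM3 (-1.09 to 0.19, adjusted p = 0.479). Neither passed the threshold, and the interaction was 0.44 (SE 0.38, adjusted p = 0.783). Differentiation changed Gdnf in CTRL cells by 0.01 (-0.63 to 0.66, adjusted p = 0.981). In limma none of the 2 genes was called in any of these 3 comparisons, in which 1.14%, 0% and 1.98% of genes were called. In GM 1244 genes had an unadjusted p under 0.05, and Gdnf was among them (0.0145).

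**Figure D5:**
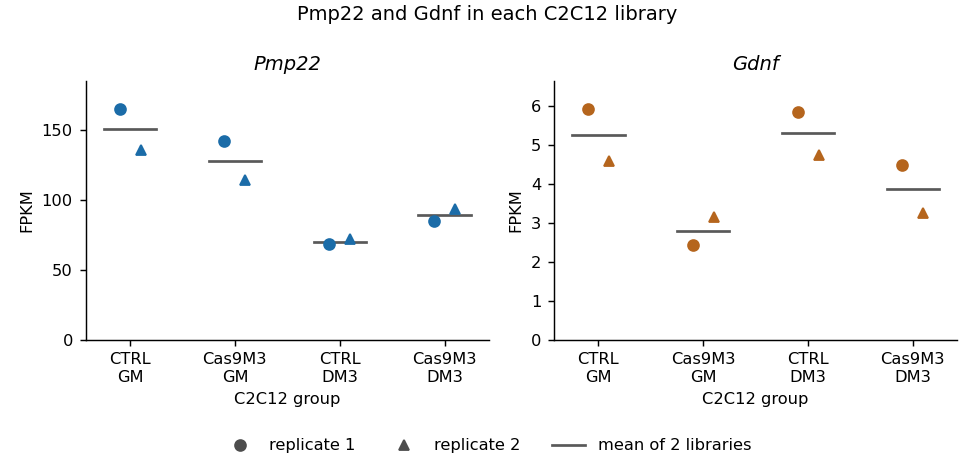
FPKM (linear axis from 0) of Pmp22 and Gdnf in the 8 C2C12 libraries, with CTRL and Cas9M3 cells in growth medium (GM) and on day 3 of differentiation (DM3), circles and triangles for replicates 1 and 2, and a bar for the mean of 2 libraries. Pmp22 is higher in GM in all libraries, and Gdnf is lower in each Cas9M3 library than in each CTRL library.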

How the data were processed

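RNA-seq of TA muscle (days 0, 1, 3, 5 and 10 after CTX, 10 libraries) and of C2C12 cells (8 libraries) was used, and libraries were grouped by their labels. HISAT2 alignment (GRCm38) and featureCounts on Ensembl genes came first, after which the authors computed FPKM in DESeq2 and deposited those values, with each table scaled on its own. The strand setting is not given in the sources used here. Because only FPKM was used, limma replaced a test on counts. Genes that reached 0.5 FPKM in 2 or more libraries were fitted with limma 3.58.1 in R 4.3.3 (lmFit, eBayes with a trend) on log2(FPKM + 0.1), with all groups of a table in 1 fit and Benjamini-Hochberg adjustment. The smallest two-sided p of an exact permutation of 2 against 2 libraries is 0.333, so each p rests on this model.

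The 8 genes and the gene lists were chosen with earlier results of these data known. Named besides them were at most 4 genes of a list, those with the highest mean FPKM, the ligands and receptors of the 8, and the 3 genes with the highest correlation to each. Depth was read from the steps of low values with exon lengths of GENCODE M21 in Python 3.11.15 (numpy 2.4.6, pandas 2.3.3), and plots were drawn with matplotlib 3.10.9. In C2C12 the deviations of libraries with the same replicate number correlated at 0.278 to 0.680 in all 6 pairs of groups. The numbers thus pair these libraries by this measure, and no source gives a reason. The main C2C12 tests had no term for this pairing. Replicate 1 held 25160000 to 29560000 reads on genes in the C2C12 groups, and replicate 2 held 14230000 to 18890000. Alternatives covered pseudocounts (1 and 0.01), the filter (none, or a minimum of 1 FPKM), median-ratio and quantile scaling, and the replicate block. They also covered a fit of only the groups compared, a fold threshold, each library left out, and a term for Xist. For single genes the term for Xist was added after seeing the data. Median-ratio scaling gave the values of the main fit for Gal, Sox10 and Gap43 on day 3, so it added no separate check of these calls. Scaling by depth was not run. The 8 Mettl3 overexpression libraries were not analysed here. Some genes of the lists are not reported here.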

Additional observations from a re-analysis of the deposited data

How the results depend on the processing

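Of the 7 differences called among 47 reported for single genes, only the rise of Gal on day 3 against day 0 and its fall from day 3 to day 10 kept their call in every alternative run, and 5 lost it at least once. In 11 differences the sign changed at least once, none of them called, with an adjusted p of at least 0.445 in the setting that changed it. Libraries of muscle with the same replicate number were not paired by their deviations (correlations of -0.0187 to 0.211 over 10 pairs of days), and the replicate block called 1 of the 8 genes on day 1 (Gal), 2 from day 1 to day 3 and 1 over the 5 days. In C2C12 it changed no call. The cause of the changes below was not tested, apart from the filter at 1 FPKM, which removes Sox10 and Gap43.

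The count of genes called on day 1 against day 0 was 0 and became 1 with the filter at 1 FPKM. On day 3 it was 3 and became 1 with that filter. On day 5 it was 1 and became 2 with a pseudocount of 0.01 or a fit of the 2 days alone, and 0 with the filter at 1 FPKM, the Xist term or the fold threshold. From day 1 to day 3 it was 1 and became 2 with the filter at 1 FPKM, and 0 with no filter, the Xist term, a fit of the 2 days alone or the fold threshold. From day 3 to day 5 it became 0 with the Xist term. From day 3 to day 10 it became 2 with a fit of the 2 days alone. Over the 5 days it was 2 and became 1 with no filter, the filter at 1 FPKM or the Xist term.

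With each library left out in turn, the counts ranged from 0 to 1 (day 1 against day 0), 1 to 3 (day 3), 0 to 1 (day 5), 0 to 1 (day 3 against day 1), 0 to 1 (day 5 against day 3), 1 to 2 (day 10 against day 3), 1 to 3 (over the 5 days) and 0 to 1 (CTRL DM3 against GM). Changes of sign under the Xist term were in Pmp22 (-0.30), Ngfr (0.34) and Gdnf (-0.11) on day 1. Under quantile normalization they were in Mbp (-0.15) and S100b (-0.31) on day 3, Ngfr on day 5 (-0.16) and Gdnf in CTRL DM3 against GM (-0.0532). With a library left out, the log2 fold change against day 0 ranged on day 1 from -0.60 to 0.49 for Mbp, -0.38 to 0.66 for Pmp22 and -0.12 to 0.88 for Gdnf. On day 3 it ranged from -0.20 to 0.54 for Mbp and -0.0075 to 0.20 for S100b, and on day 5 from -0.21 to 0.54 for Ngfr. On day 10 it ranged from -0.34 to 0.38 for Pmp22, -0.59 to 0.14 for Ngfr and -1.21 to 0.23 for Gal. For Gdnf in CTRL DM3 against GM it ranged from -0.17 to 0.19. The day 3 call of Gap43 was lost under quantile normalization (1.79). Depth limits Gap43, S100b, Sox10 and the low days of Gal most.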
